A study of Mus musculus with 6 samples.

Results

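The immediate early genes *Fos*, *Fosb*, *Jun*, *Junb*, *Egr1*, *Atf3*, *Dusp1* and *Ier2* and the inducible heat shock genes *Hspa1a* and *Hspa1b* were examined in isolated mammary epithelial cells of *fat-1* and wildtype (WT) mice. Members were found by gene symbol, and these 10 rows were among the 61880 rows of the count matrix. All rows that share the assembled locus of a member were also added together, which gave 9 of 53912 loci because *Hspa1a* and *Hspa1b* lie in a single assembled locus. None of the 10 genes passed the test between the genotypes. At each of the 9 loci the group means differed by less than the SD of the 3 WT samples. At *Egr1*, *Atf3* and *Dusp1* the means differed by more than the SD of the 3 *fat-1* samples.

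The *fat-1* group held 3 samples from female transgenic *fat-1* (FVB/NJ) mice, whose roundworm *n*-3 desaturase turns *n*-6 PUFA into *n*-3 PUFA in the whole body. The WT group held 3 samples from female wildtype (FVB/NJ) mice. Both groups were in puberty (6 to 8 weeks) and were kept for life on the parental modified AIN93G diet with 10% fat by weight from safflower oil, or 22% of energy, which is rich in *n*-6 PUFA. Each sample was a pool of mice (2 to 3 mice a sample in one place of the study's methods, and 6 to 8 mice for each analysis in another), so the spread between samples is a spread between pools. The transgene itself was not analysed here, and the genotypes stand as labelled.

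Immediate early genes are transcribed within minutes of a growth factor, injury or stress signal without new protein synthesis, from promoters read by serum response factor, CREB and related factors. Heat shock factor induces *Hspa1a* and *Hspa1b* when proteins unfold. Enzymatic dissociation of a tissue is known to raise both groups, and here the minced inguinal glands of every sample were digested with collagenase and hyaluronidase for 18 h at 37 °C, followed by trypsin, dispase and DNase. No sample without dissociation was analysed here, so the levels below have no undigested tissue beside them.

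The counts summed to between 204539059 and 232148824 per sample, and the smallest member count in a sample was 2726, for *Fosb*. The isolates held more than epithelial cells. Marker levels were summed over the marker loci that hold no other named gene, a choice made after seeing the data. The summed level of 10 luminal marker genes ranged from 1020 to 4440 CPM (counts per 1e6 counts) across the 6 samples and that of 6 basal markers from 125 to 488 CPM. The summed level of 6 fibroblast markers ranged from 1550 to 6060 CPM, that of 7 immune markers from 659 to 1580 CPM and that of 6 endothelial markers from 214 to 266 CPM. Another 5 markers share their loci with another gene, and with them the luminal sum was 1040 to 4570 CPM, the basal sum 149 to 607 CPM and the immune sum 1880 to 3210 CPM. The markers with the highest mean level in their lists were *Cldn4* (237 to 1150 CPM), *Myh11* (48.3 to 152 CPM), *Dcn* (898 to 2080 CPM), *Cd68*, *Pecam1* (59.7 to 119 CPM) and *Fabp4* (83.2 to 126 CPM). The *Cd68* locus (668 to 860 CPM) also holds *Eif4a1*, a translation factor that every cell uses, and the *Cd68* row itself had at most 5.25 CPM. *Cd74*, the invariant chain of MHC class II, named after its values were seen, was the next immune marker at 452 to 1030 CPM. Of the 6 adipocyte markers, *Adipoq*, *Plin1*, *Lep*, *Cidec* and *Retn* were all under 1 CPM in each sample. In such bulk samples, fewer cells of a type and less RNA per cell cannot be told apart.

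The 250 bases before the start site of *Fos*, *Dusp1*, *Hspa1a* and *Hspa1b* are shown as examples. *Fos* holds the CRE core and a TATA box, and *Dusp1* the whole CRE. The heat shock genes, nearly identical there, hold paired heat shock units. Other members hold the CRE core or the paired units as well, as given below. The windows are from RefSeq (GRCm38.p6), read 5′ to 3′ on the strand of the gene. The capitals mark the CRE core TGACG (on either strand), the whole CRE TGACGTCA, the TATA box TATAAA and paired heat shock units GAANNTTC.
*Fos* (chr12:85473640-85473889, + strand): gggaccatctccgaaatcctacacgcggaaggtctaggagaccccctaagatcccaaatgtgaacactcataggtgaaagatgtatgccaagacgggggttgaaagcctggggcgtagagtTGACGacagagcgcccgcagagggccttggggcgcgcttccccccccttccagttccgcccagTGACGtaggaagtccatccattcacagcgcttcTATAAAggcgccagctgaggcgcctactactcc
*Dusp1* (chr17:26508473-26508722, - strand): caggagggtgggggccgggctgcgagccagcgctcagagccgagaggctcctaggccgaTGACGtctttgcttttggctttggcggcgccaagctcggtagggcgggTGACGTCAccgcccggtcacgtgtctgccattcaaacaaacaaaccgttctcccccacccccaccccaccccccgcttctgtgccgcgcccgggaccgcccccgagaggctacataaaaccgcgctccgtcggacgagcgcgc
*Hspa1a* (chr17:34972157-34972406, - strand): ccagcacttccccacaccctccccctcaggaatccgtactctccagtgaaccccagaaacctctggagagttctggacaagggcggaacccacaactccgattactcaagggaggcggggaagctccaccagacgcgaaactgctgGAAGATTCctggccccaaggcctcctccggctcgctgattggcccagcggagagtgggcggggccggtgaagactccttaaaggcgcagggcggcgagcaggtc
*Hspa1b* (chr17:34959239-34959488, - strand): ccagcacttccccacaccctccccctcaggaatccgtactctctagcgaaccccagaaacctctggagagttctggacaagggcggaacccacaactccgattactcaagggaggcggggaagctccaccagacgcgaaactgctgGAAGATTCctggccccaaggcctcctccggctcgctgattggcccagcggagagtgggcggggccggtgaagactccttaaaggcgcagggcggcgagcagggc

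RefSeq windows were matched for 8 of the 10 genes, all but *Egr1* and *Ier2*. The CRE core, searched on both strands, was found in 5 of the 8 (*Fos*, *Fosb*, *Junb*, *Atf3* and *Dusp1*), beside 17.8% of 32851 RefSeq windows of the same length. The whole CRE, which contains the core, was found only in the *Dusp1* window (1.55% of all windows), at 143 to 136 bases before the start. The paired heat shock units were found in *Jun*, *Hspa1a* and *Hspa1b* (12.8% of all windows), in the heat shock genes at 104 to 97 bases before the start, and the TATA box only in *Fos* (12.4% of all windows). The AP-1 site TGANTCA (with C or G at N), the CArG box and the longer heat shock element GAANNTTCNNGAA (searched in both directions of its units) gave no match in the 8 windows, beside 4.46%, 1.47% and 0.466% of all windows. A match describes letters in a window and not a bound site.

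The heat shock genes stood far above the others in level. Per kilobase of annotated exon, *Hspa1b*, which encodes an inducible cytosolic Hsp70 chaperone, had a mean of 836 CPM per kb (range over the 6 samples 612 to 1040) and *Hspa1a*, its neighbouring copy, 489 CPM per kb (378 to 563). They ranked 33 and 59 among 23759 annotated genes with a symbol and a length. *Junb* followed with 115 CPM per kb (110 to 121) and *Jun* with 105 CPM per kb (90.8 to 118), and their ranges overlapped. *Atf3* (46.0 CPM per kb), *Dusp1* (36.8 CPM per kb) and *Ier2* (34.4 CPM per kb) came next, and each of them overlapped its neighbour in this order. *Egr1* had 22.8 CPM per kb (15.8 to 30.1), *Fos* 7.60 CPM per kb (6.05 to 9.03) and *Fosb* 2.56 CPM per kb (2.08 to 2.90), with no overlap between these 3. These levels rest on the row with the symbol. With every row of its locus counted over the same length, *Fos* had 15.0 CPM per kb (10.8 to 21.8), which overlapped *Egr1*. In rank, *Jun* and *Junb* stood at 338 and 301, against 4802 for *Fos* and 8931 for *Fosb*. The *Jun* members of AP-1 were thus higher per length than the *Fos* members in every sample.

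**Figure D1:**
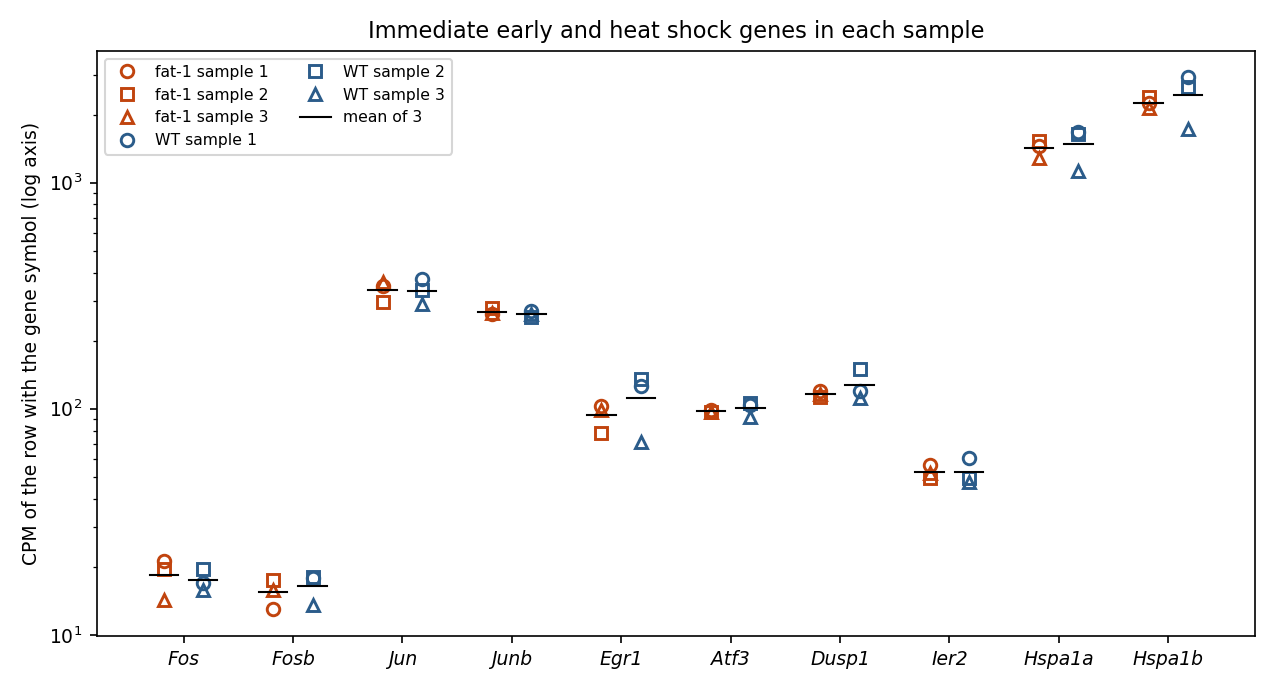
CPM of the row that carries each gene symbol (y axis, log scale) in the 3 *fat-1* samples (orange) and the 3 WT samples (blue), with the mean of each group as a black bar; *Hspa1a* and *Hspa1b* lie between 1120 and 2920 CPM and *Fos* and *Fosb* between 13.0 and 21.2 CPM, and the groups overlap for all 10 genes.

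The comparison of genotypes asks whether lifelong *n*-3 PUFA exposure goes with another level of these genes in the isolated cells. With the edgeR quasi-likelihood test and *p* adjusted after Benjamini–Hochberg, 0 of the 9 member loci and 0 of the 10 member rows were called, beside 0% of 24061 loci and 0% of 30683 rows tested, and the adjusted *p* was 1.00 for every member on both scales. At an unadjusted *p* of 0.05 the quasi-likelihood test also called 0 of the 9 loci (1.14% of all loci, or 274) and 0 of the 10 rows (2.21% of all rows, or 678). DESeq2 and edgeR's exact test called 0 members as well on both scales. Over the whole table DESeq2 called 93 rows (0.303% of all rows) and 8 loci, and the exact test 32 rows and 6 loci. All members passed the filter on low counts. For the locus sums, two-sided exact permutation tests of log2(CPM + 1) gave *p* from 0.4 to 1.0, where 3 against 3 samples cannot go below 0.1. The *fat-1* and WT values overlapped at all 9 loci, while they did not overlap at 4.15% of all loci tested. The values of the 10 rows overlapped too (5.26% of all rows did not).

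*Fos* and *Fosb* encode the Fos subunits of the AP-1 transcription factor, which bind DNA only with a Jun partner. The row named *Fos* had 21.2, 19.6 and 14.2 CPM in *fat-1* samples 1, 2 and 3 and 16.9, 19.5 and 15.8 CPM in WT samples 1, 2 and 3. The highest and the lowest of these were both *fat-1* samples. The log2 fold change (*fat-1* minus WT, as throughout) was 0.08 (SE 0.20, 95% interval -0.41 to 0.57). The *Fos* locus (gene at chr12:85473890-85477273, + strand, GRCm38) also held an unnamed row, with between 25.7% (*fat-1* sample 2) and 67.0% (WT sample 1) of its counts, so the locus sum differed from the row, with 43.1, 26.3 and 30.6 CPM in *fat-1* and 51.2, 35.4 and 25.5 CPM in WT. On that scale WT sample 1 was highest and WT sample 3 lowest, and the log2 fold change was -0.16 (SE 0.30, -0.88 to 0.55), of the opposite sign. The share of the locus in the unnamed row was 43.3% ± 15.3 in *fat-1* and 50.1% ± 15.1 in WT (SD, n = 3, exact permutation *p* = 0.6). *Fosb*, with 1 row in its locus, had 12.9, 17.3 and 15.8 CPM in *fat-1* and 17.9, 18.1 and 13.6 CPM in WT. Its lowest value was in *fat-1* sample 1, next to WT sample 3, and the log2 fold change was -0.11 (SE 0.17, -0.52 to 0.31).

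*Jun* and *Junb* encode Jun subunits of AP-1. The *Jun* locus had 346, 296 and 365 CPM in *fat-1* and 375, 335 and 290 CPM in WT. All *fat-1* values lay inside the WT range, and the log2 fold change was 0.01 (SE 0.13, -0.30 to 0.32). *Junb* had 262, 279 and 264 CPM in *fat-1* and 271, 253 and 261 CPM in WT. It was the steadiest of the members, with 1.10 times between its highest and lowest samples, and its interval was the narrowest (log2 fold change 0.04, SE 0.07, -0.14 to 0.21), which bounds the ratio of *fat-1* to WT between 0.910 and 1.15. Exons of the opposite strand overlap 7.28% of *Jun* (by *Junos*) and 7.52% of *Junb* (by *Prdx2*), and whether reads were assigned by strand is not given in the sources used here.

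*Egr1*, a zinc finger transcription factor induced through serum response factor, had the widest range among the rows, 1.90 times between its highest and lowest samples, and among the locus sums the widest after *Fos* (2.01 times). It had 103, 78.0 and 99.2 CPM in *fat-1* and 126, 135 and 71.1 CPM in WT. WT samples 1 and 2 lay above all *fat-1* samples and WT sample 3 below all of them. Its log2 fold change of -0.25 (SE 0.25, -0.86 to 0.37) was the largest in size among the members and did not pass (unadjusted *p* = 0.368 by edgeR's quasi-likelihood test). *Atf3*, a stress-induced member of the ATF/CREB family, had 98.3, 96.3 and 96.7 CPM in *fat-1*, within 2 CPM of each other, and 105, 106 and 92.4 CPM in WT (log2 fold change -0.06, SE 0.09, -0.26 to 0.15). *Ier2*, a nuclear protein encoded by a short immediate early gene, had 56.1, 49.1 and 51.9 CPM in *fat-1* and 60.3, 49.4 and 47.5 CPM in WT. The means of both groups were 52.4 CPM (SD 3.54 in *fat-1* and 6.93 in WT, n = 3), and the interval of the log2 fold change ran from -0.30 to 0.30.

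*Dusp1* encodes a phosphatase that switches off p38, JNK and ERK and so limits the signal that induces it. Its row had 120, 113 and 116 CPM in *fat-1* and 120, 150 and 111 CPM in WT. Only WT sample 2 stood apart from the rest. Its locus also held an unnamed row, which took 10.7% of the locus in *fat-1* sample 2 and 10.4% in WT sample 1 but between 0.567% and 0.796% in the other 4 samples. With that row added the locus had 120, 126 and 117 CPM in *fat-1* and 134, 151 and 112 CPM in WT. The log2 fold change was -0.13 for the row (SE 0.14) and -0.13 for the locus (SE 0.12, -0.43 to 0.18), and its unadjusted *p* of 0.348 by edgeR's quasi-likelihood test was the smallest among the member loci.

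*Hspa1a* (chr17:34969190-34972156, - strand) and *Hspa1b* (chr17:34956436-34959238, - strand) had more counts than the 8 other members together, with 75.9% to 80.8% of the members' counts and 0.286% to 0.468% of all counts in a sample. *Hspa1a* had 1450, 1530 and 1280 CPM in *fat-1* and 1670, 1640 and 1120 CPM in WT, and *Hspa1b* had 2250, 2400 and 2130 CPM in *fat-1* and 2920, 2650 and 1720 CPM in WT. For both copies WT samples 1 and 2 were the highest and WT sample 3 the lowest, with every *fat-1* sample between them. The log2 fold change was -0.06 for *Hspa1a* (SE 0.17, -0.48 to 0.37) and -0.10 for *Hspa1b* (SE 0.20, -0.59 to 0.39). Their coding sequences are 99.4% identical, with 8 mismatches and 3 gap bases over 1929 bases, and the windows printed above differ at 3 of 250 bases. Of all stretches of 100 bases, the length of a read, 47.1% in the *Hspa1a* transcript occur unchanged in *Hspa1b*, so the division of reads between the copies is uncertain. The sum of both rows does not depend on that division. It was 3700, 3930 and 3410 CPM in *fat-1* and 4590, 4290 and 2840 CPM in WT, with a log2 fold change of -0.09 (SE 0.18, -0.52 to 0.35). The ratio of *Hspa1b* to *Hspa1a* stayed between 1.53 (WT sample 3) and 1.75 (WT sample 1). The locus as a whole, where an unnamed row added 5.86% to 13.5%, gave -0.05 (SE 0.16, -0.45 to 0.34). Exons of *Gm20481* on the opposite strand overlap 19.0% of *Hspa1a*.

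**Figure D2:**
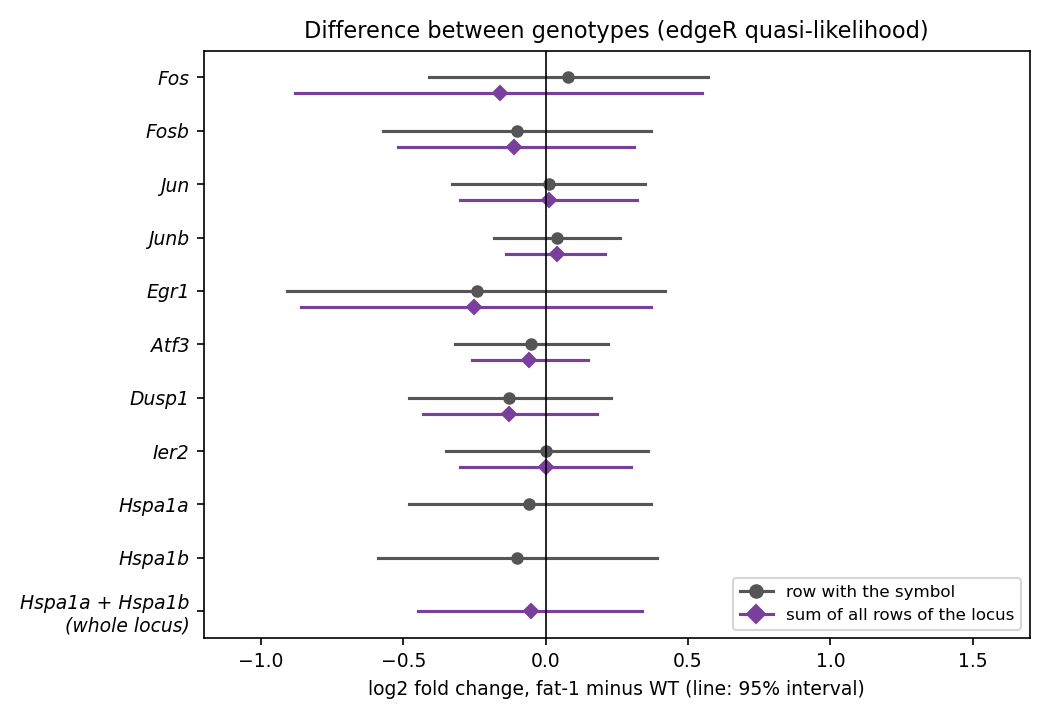
Log2 fold change of *fat-1* against WT (x axis) for each gene by edgeR's quasi-likelihood fit, for the row with the symbol (grey circles) and for the sum of all rows of the locus (purple diamonds), with 95% intervals as lines; every interval contains 0, *Junb* has the narrowest, and *Fos* changes sign between the scales.

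The same samples were high or low for most members. WT sample 3 was the lowest of the 6 samples at 7 of the 9 loci (17.1% of all loci tested), the exceptions being *Fosb*, lowest in *fat-1* sample 1, and *Junb*, lowest in WT sample 2. The highest sample was WT sample 1 at 4 loci (*Fos*, *Jun*, *Ier2* and the heat shock locus) and WT sample 2 at 4 (*Fosb*, *Egr1*, *Atf3* and *Dusp1*), against 14.8% and 15.5% of all loci. At 7 of the 9 loci all *fat-1* values lay inside the WT range (19.6% of all loci), as they did for 7 of the 10 rows (19.7% of all rows), and at none did all WT values lie inside the *fat-1* range (27.3% of all loci). These 9 loci share their samples and are not independent of each other. The summed level of the 10 rows was 4720, 4880 and 4430 CPM in *fat-1* and 5680, 5360 and 3740 CPM in WT, and without the heat shock pair 1020, 951 and 1020 CPM in *fat-1* and 1090, 1070 and 901 CPM in WT. The WT samples spanned the wider range on both sums. Variation between samples, as a coefficient of biological variation from edgeR, had a median of 0.159 over the member loci, beside 0.170 over the 9596 loci with a mean of at least 10 CPM.

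**Figure D3:**
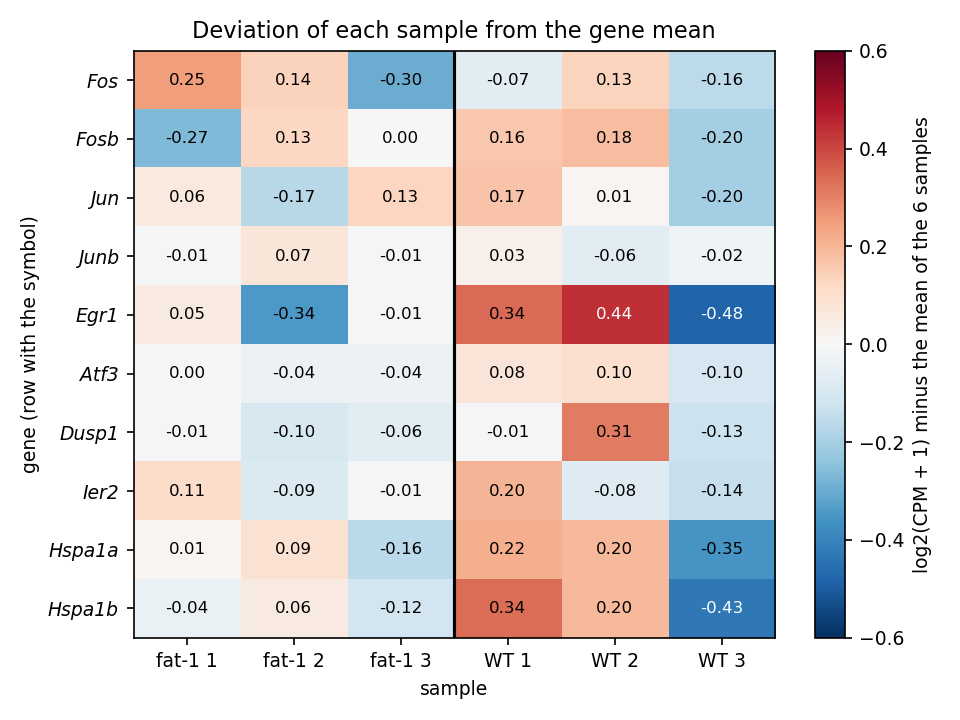
Deviation of each sample (columns, *fat-1* to the left of the line and WT to the right) from the mean of the 6 samples in log2(CPM + 1) for the row of each gene; WT sample 3 is below 0 for all 10 genes, down to -0.48 for *Egr1*, and *Junb* deviates little in any sample.

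The median difference over the member loci moved most when a WT sample was left out. At 7 of the 9 loci the log2 fold change was below 0 (49.4% of all loci tested), with a median of -0.06 over the members and 0.00 over all loci. WT sample 3 is singled out here after it was seen to be lowest at 7 of the 9 loci. Leaving it out raises the WT level at those loci, so the values without it are a description. Without WT sample 3 the median over the members was -0.20. At 5 loci (*Fosb*, *Egr1*, *Atf3*, *Dusp1* and the heat shock locus) every *fat-1* value then lay below both remaining WT values. The same held at 8.14% of all loci. *Egr1* then had a log2 fold change of -0.47 and was the single member locus past an unadjusted *p* of 0.05, as were 2.19% of all loci. By edgeR's quasi-likelihood test its unadjusted *p* was then 0.0169 and its adjusted *p* 1.00. The sum of *Hspa1a* and *Hspa1b* reached -0.26 without that sample (unadjusted *p* = 0.0349 by the same test). Without WT sample 1 the median over the members was 0.06, and the log2 fold changes ran from -0.14 to 0.13. At 1 locus (*Junb*) every *fat-1* value then lay above both remaining WT values, as at 4.73% of all loci. Without WT sample 2 the median was -0.02, and without each *fat-1* sample in turn it was -0.05. With any sample but WT sample 3 left out, all *fat-1* values lay below WT at 0 member loci, beside 4.51% to 6.9% of all loci. Without WT sample 1 the sign turned for *Fos* (0.13), *Ier2* (0.11) and the heat shock locus (0.06). Without WT sample 3 it turned for *Jun* (-0.07). *Fosb* turned sign without *fat-1* sample 1 (0.02). The heat shock locus also turned without WT sample 2 (0.01) and without *fat-1* sample 3 (0.02). *Jun* and *Ier2*, near 0 with all samples, turned without other samples too. No member had an adjusted *p* at or under 0.05 in any of these fits.

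Cell type markers also differed between the samples that were high and low in the members. WT sample 3 had summed luminal markers of 1070 CPM and immune markers of 1580 CPM, against 3480 and 707 CPM in WT sample 1 and 2010 and 811 CPM in WT sample 2. *fat-1* sample 2 had almost the same luminal and immune sums as WT sample 3 (1020 and 1540 CPM). Its 10 members summed to 4880 CPM, against 3740 CPM in WT sample 3. Most of that gap lay in the heat shock pair (3930 and 2840 CPM). Without the pair the members of these samples summed to 951 and 901 CPM, below all other samples. *fat-1* sample 1 had the highest luminal sum (4440 CPM) with a member sum of 4720 CPM, and 1020 CPM without the pair. Fibroblast markers summed to 1550, 3870 and 6060 CPM in *fat-1* and 3330, 5620 and 4870 CPM in WT, an order unlike that of the member sum. Among the markers only *Fabp4*, which endothelial cells also express, passed an unadjusted *p* of 0.05 between the genotypes. Its log2 fold change was -0.31 (SE 0.12), with an unadjusted *p* of 0.037 in edgeR's quasi-likelihood fit and an adjusted *p* of 1.00. The *fat-1* values lay below all WT values for 1 of the 6 adipocyte markers (*Fabp4*) and 2 of the 6 endothelial markers (*Cdh5* and *Tek*), where 4.15% of all loci did not overlap in either direction, and overlapped for the endothelial markers *Pecam1*, *Kdr*, *Vwf* and *Emcn*. The part of cell composition in the differences between samples was not tested.

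**Figure D4:**
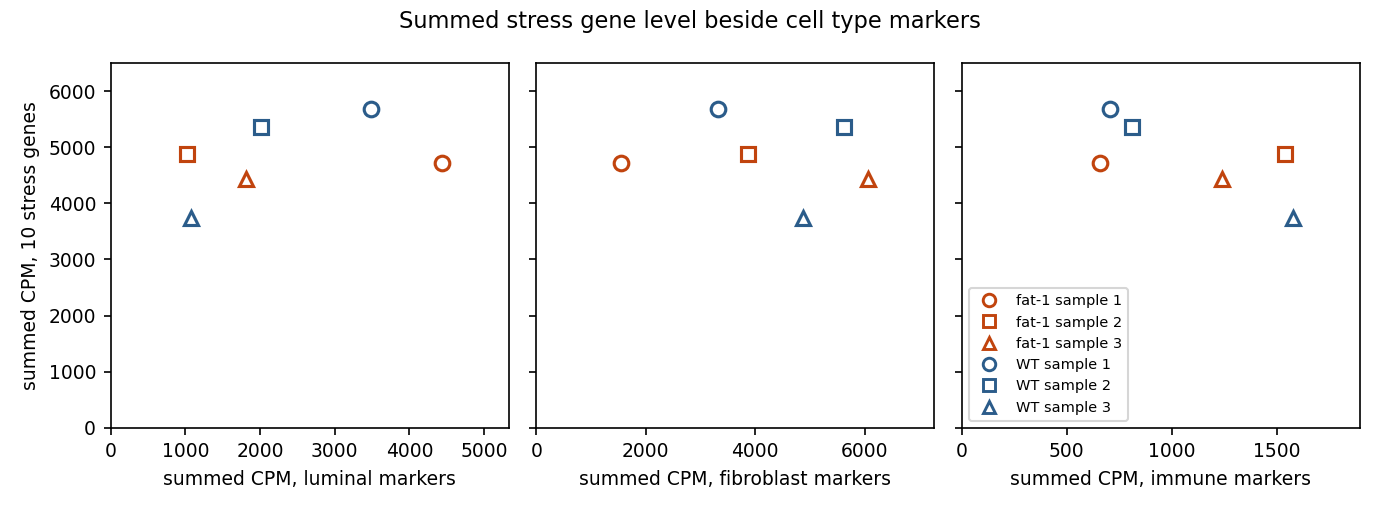
Summed CPM of the 10 genes (y axis) against the summed CPM of luminal, fibroblast and immune markers (x axes, a panel each). The marker sums are over loci with no other named gene, with 1 point per sample, *fat-1* in orange and WT in blue. *fat-1* sample 2 and WT sample 3 lie close together on the luminal and immune axes and apart on the y axis, at 4880 and 3740 CPM. The heat shock pair holds 3930 and 2840 CPM of these sums.

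The wider pathway was read from 7 lists of 114 genes, each gene in a locus that passed the filter, of which 11 share their locus with another named gene. With the edgeR quasi-likelihood test and Benjamini–Hochberg adjusted *p*, 0 of the 114 loci were called (0% of all loci tested), and 0 passed an unadjusted *p* of 0.05 (1.14% of all loci). The median size of the log2 fold change was 0.06 over these loci and 0.06 over the members, as it was over the 9596 loci of at least 10 CPM. By list, the median log2 fold change was 0.01 for 37 other immediate early genes, 0.05 for 13 other AP-1 family members and partners, 0.03 for 9 MAP kinase phosphatases, -0.03 for 22 other heat shock genes, -0.01 for 18 upstream kinases and factors, 0.00 for 12 integrated and endoplasmic reticulum stress genes and 0.05 for 8 oxidative and metal stress genes. All 7 medians thus lay within 0.05 of 0.

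The gene with the smallest *p* of a list is given for 6 of the 7 lists. Among the other immediate early genes it was *Ccn2*, a matricellular protein induced by serum and by YAP, with 15.5, 5.51 and 8.53 CPM in *fat-1* and 33.8, 11.6 and 5.87 CPM in WT (log2 fold change -0.79, SE 0.69). In this gene WT sample 1 alone was high. *Dusp4*, a nuclear phosphatase of ERK, led the phosphatases (0.16, SE 0.48, 80.2 to 232 CPM). *Srf*, the serum response factor itself, led the upstream factors (0.12, SE 0.11, 48.8 to 63.4 CPM). *Dnajb9*, a cochaperone of the endoplasmic reticulum, led its list (-0.14, SE 0.11, 132 to 172 CPM), and *Srxn1*, which repairs oxidised peroxiredoxins, the oxidative stress genes (-0.15, SE 0.17, 1480 to 2340 CPM). *Hspa4l*, an Hsp110 family chaperone, led the heat shock genes with 151, 138 and 148 CPM in *fat-1* and 191, 211 and 126 CPM in WT, and its locus also holds *Plk4*. The log2 fold change of this locus was -0.27 (SE 0.19). Like the heat shock pair, the locus was highest in WT samples 1 and 2 and lowest in WT sample 3. The row named *Hspa4l* did not have this order, with 50.2 to 61.0 CPM in *fat-1* and 31.0 to 41.7 CPM in WT.

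**Figure D5:**
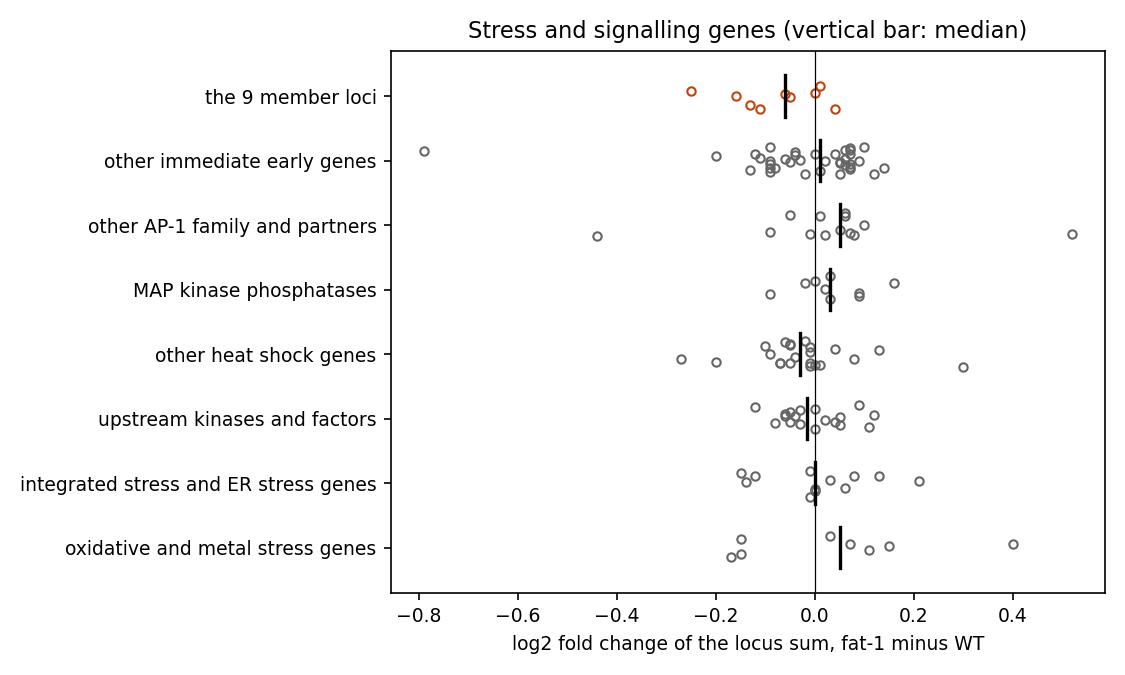
Log2 fold change of each locus sum, *fat-1* minus WT (x axis), for the 9 member loci (orange) and the 7 other lists (grey), with the median of each list as a black bar; the medians lie between -0.06 and 0.05, and *Ccn2* at -0.79 is the lowest point.

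Among the rows of these 114 genes, 3 passed where no locus did, a count near the share over all rows given next. The rows of *Per1*, *Hspa4l* and *Ddit3* passed an unadjusted *p* of 0.05 by edgeR's quasi-likelihood test (2.21% of all rows), and each had an adjusted *p* of 1.00. With DESeq2's Wald test the *Per1* row alone of the 114 was called (adjusted *p* = 0.00588, beside 0.303% of all rows). *Per1*, a clock gene that is also induced as an immediate early gene, had 75.9 to 99.6 CPM in *fat-1* and 54.0 to 56.2 CPM in WT for its row, with a log2 fold change of 0.70 (SE 0.14). Over its locus the values were 106, 109 and 102 CPM in *fat-1* and 111, 93.4 and 92.8 CPM in WT, and the log2 fold change was 0.09 (SE 0.10). The *Hspa4l* row had a log2 fold change of 0.55 (SE 0.17) and its locus -0.27, and the row of *Ddit3*, the stress-induced factor CHOP, had -0.69 (SE 0.23) and its locus 0.13 (SE 0.20). The sign thus turned between row and locus for *Hspa4l* and *Ddit3*. It also turned for other list genes whose rows did not pass. Examples are *Dnajb4* (row -0.75, SE 0.47, and locus 0.08) and *Nr4a3* (row -0.36, SE 0.23, and locus 0.06). *Per1*, *Ddit3*, *Dnajb4* and *Nr4a3* were named after their values were seen.

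The genes whose level followed the members most closely over the 6 samples were found by Pearson's *r* with the mean standardised level of the member loci, among 9247 loci with a symbol, outside the lists and at 10 CPM or more. They were *Ormdl3* (*r* = 0.982), *Spry2* (0.977), the locus of *Prkar1b* and *Gm15672* (0.977), *Ndrg1* (0.974) and *Irs1* (0.971), and 44 of the loci had an *r* over 0.9. *Ndrg1* had 306, 279 and 287 CPM in *fat-1* and 366, 327 and 257 CPM in WT. *Spry2*, a feedback inhibitor of receptor tyrosine kinase signalling, had 43.0, 41.5 and 41.0 CPM in *fat-1* and 52.5, 51.0 and 32.8 CPM in WT. These 5 loci had WT samples 1 and 2 at the top and WT sample 3 at the bottom, an order that follows from how they were picked. The correlations share the same 6 libraries and are given as a description only.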

How the data were processed

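RNA was sequenced from 3 *fat-1* and 3 WT pools of isolated mammary epithelial cells, as paired-end reads of 100 bases. The authors used HISAT2 to map the reads (GRCm38) and StringTie for assembly, and the deposited values are estimated counts in whole numbers, not normalized, for 61880 rows. The conversion to counts, the annotation and any use of strand are not given in the sources used here. Per the labels, edgeR and DESeq2 were also used by the authors.

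Genotype and number of each sample came from the labels. Rows, and sums of all rows of a locus, were filtered (filterByExpr), scaled (TMM) and tested with edgeR 4.0.16 (R 4.3.3) by the quasi-likelihood test with Benjamini–Hochberg adjustment over all features at 0.05. Alternatives were DESeq2 1.42.0, DESeq2 size factors, edgeR's exact test, its older quasi-likelihood fit, no filter, a replicate block and leaving out each sample. *Hspa1a* and *Hspa1b* share a locus, so their 2 rows were added in place of 2 loci. Positions and exon lengths are from GENCODE (GRCm38).

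The named genes were all 10 members, the gene with the smallest *p* of each pathway list, the highest gene of each marker list and the 5 loci most like the members. A gene that this rule names is not reported here. The members and lists were chosen with earlier results of these data known. P-values set the difference between genotypes against the spread between pools, which edgeR and DESeq2 moderate over all features. Same-numbered *fat-1* and WT samples were not paired by the labels.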

Additional observations from a re-analysis of the deposited data

How the results depend on the processing

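The 19 member values (10 rows and 9 locus sums) were refitted 238 times in all under the alternatives. No member was called in any of them, 213 refits kept the direction, and 25 turned the sign. A turn between values that both round to 0.00 was counted as kept. None of these values was called with either sign. Leaving out each sample in turn, the log2 fold changes ranged for the locus sums from -0.38 to 0.13 (*Fos*), -0.21 to 0.02 (*Fosb*), -0.07 to 0.10 (*Jun*), -0.05 to 0.11 (*Ier2*) and -0.20 to 0.06 (*Hspa1a* and *Hspa1b* locus), and for the rows from -0.03 to 0.23 (*Fos*), -0.23 to 0.01 (*Fosb*), -0.08 to 0.10 (*Jun*), -0.22 to 0.01 (*Dusp1*), -0.06 to 0.11 (*Ier2*), -0.22 to 0.04 (*Hspa1a*) and -0.30 to 0.05 (*Hspa1b*). The sum of *Hspa1a* and *Hspa1b* ranged from -0.26 to 0.05, above 0 only without WT sample 1. *Egr1* (-0.47 to -0.08 for the locus), *Atf3* and *Junb* kept their sign without each sample. Leaving rows of another symbol out of the heat shock locus gave 0.01 for *Hspa1a* and -0.05 for *Hspa1b*. Each of these sums still held the unnamed counts of the locus. No other member locus holds such rows. For the other members these refits used unchanged counts, and they are among those that kept the direction. Over the whole table, edgeR's quasi-likelihood test called 0 rows and 0 loci, the exact test 32 rows and 6 loci and DESeq2 93 rows and 8 loci, and leaving out a sample gave 0 to 2 rows and 0 to 1 loci. The cause was not tested. Of the 114 list loci, 0 to 1 passed an unadjusted *p* of 0.05 when a sample was left out. The replicate block called 0 rows, 0 loci and 0 members, as without it, and turned the *Ier2* locus to 0.01. Deviations of same-numbered samples correlated at 0.471, -0.09 and 0.0664, and *fat-1* samples 2 and 3 correlated best with WT samples 3 and 2 (0.434 and 0.122). By Spearman's rho 2 of the 5 loci most like the members stayed among the top 5. With 3 pools a group, the printed intervals leave room for differences of either sign.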

Other observations

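*fat-1* sample 1 was the highest of the 6 samples at 4 of the 8 loci in the list of oxidative and metal stress genes, beside 24.2% of all loci tested. These were *Gclc* and *Gclm*, the subunits of the enzyme that limits glutathione synthesis, *Nqo1*, a quinone reductase, and *Hmox1*, which encodes heme oxygenase. *Gclc* reached 2460, 501 and 509 CPM in *fat-1* and 1370, 669 and 587 CPM in WT, and *Nqo1* 310, 115 and 146 CPM in *fat-1* and 205, 205 and 135 CPM in WT. *Hmox1* was the highest of the list at 6880 to 9670 CPM, with no call between the genotypes (log2 fold change 0.11, SE 0.13). The *Gclm* locus also holds *Dnttip2*. *Srxn1*, *Txnrd1*, *Mt1* and *Mt2* were highest in WT sample 2, as were 15.5% of all loci (*Srxn1* 2340 CPM, *Txnrd1* 959 CPM, *Mt1* 194 CPM and *Mt2* 386 CPM). These genes were named after their values were seen. *fat-1* sample 1 also had the highest luminal marker sum (4440 CPM), and the part of cell composition was not tested.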
